A study of Mus musculus with 12 samples.

Results

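The enzymes that turn cholesterol into conjugated bile acids were described here in the livers of mice with CCl4-induced hepatic fibrosis. The 9 genes Cyp7a1, Cyp8b1, Cyp27a1, Cyp7b1, Akr1d1, Hsd3b7, Amacr, Baat and Slc27a5 were chosen by name, and all 9 were found among the 14188 protein-coding genes measured. Both groups were male mice, of strain C57BL/6J by the study's methods and C57BL/8 by the labels, that were 6 weeks old at the start, and both received CCl4, a solvent that injures hepatocytes, mixed with corn oil at 10 µl/g by intraperitoneal injection 2 times a week. The PZH group also received PZH (Pien Tze Huang, a herbal preparation of Chinese medicine) into the stomach at 0.25 mg/g 1 time a day, and the control group received double distilled water instead. The livers of 6 mice per group, killed in week 8, were sequenced. All 12 mice had received CCl4, so the values describe PZH on top of CCl4 and not a healthy liver.

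Bile acids are made from cholesterol in hepatocytes and are secreted into bile, where they carry lipids. In the classical pathway Cyp7a1 hydroxylates cholesterol, Hsd3b7 oxidizes the product, Cyp8b1 directs part of it towards cholic acid and Akr1d1 reduces the ring. In the alternative pathway Cyp27a1 oxidizes the side chain first and Cyp7b1 hydroxylates the ring, and the later steps of both pathways use Amacr, Slc27a5 and Baat. Bile acids that return to the liver repress Cyp7a1 through nuclear receptors and through a growth factor from the gut, and Cyp7a1 also follows the time of day.

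The values are FPKM, in which the fragments of a transcript are divided by its length and by the size of the library, so levels of different genes can be set side by side per length. The FPKM of a gene is the sum over its protein-coding transcripts. A gene is said to have risen or fallen if it passed an adjusted P threshold of 0.05 in limma, a linear model fitted to log2(FPKM + 1) over all genes with Benjamini-Hochberg adjustment. A log2 difference is the PZH mean minus the control mean on that scale, which understates the change of genes with low values. An exact permutation p is two-sided over all labellings of the 12 mice, cannot be below 0.0022, and is not adjusted. FPKM values carry no read depth, and whole reads could not be recovered from them, so the error of each value is the spread between 6 mice.

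Of the 9 enzymes, 7 rose in the PZH group and none fell. Over all genes tested, 12.7% rose and 32.1% fell. No enzyme was lower in limma at an unadjusted P below 0.05 or by the exact permutation test (0 of 9 by each). The median log2 difference of the 9 enzymes was 0.72, against -0.11 over all genes. In 4 enzymes (Cyp7a1, Akr1d1, Amacr and Baat) every PZH mouse was above every control mouse, which held for 6.46% of all genes. Cyp7a1, Cyp8b1 and Akr1d1 also passed the threshold that the study used, a log2 difference of at least 1 with an unadjusted P below 0.05. That made 3 of 9 enzymes, against 1.52% of all genes. The study applied this threshold to single transcripts, and here it was applied to the summed genes with the limma P. Cyp7b1 and Slc27a5 did not pass either threshold.

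**Figure D1:**
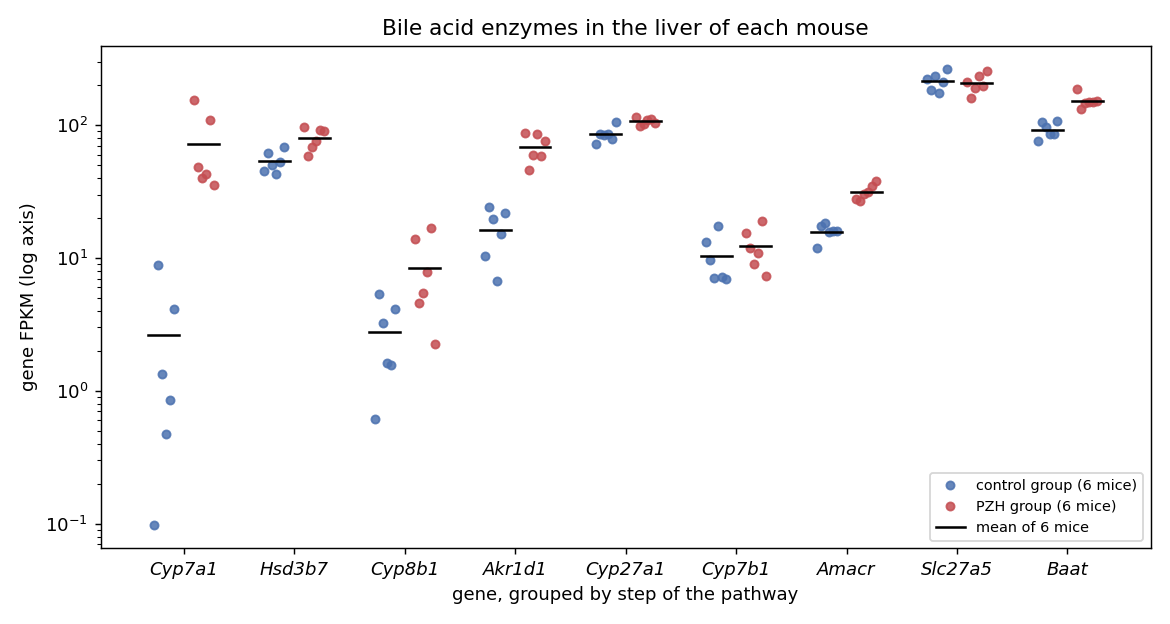
FPKM of the 9 enzymes (log axis) in each of 6 control mice (blue) and 6 PZH mice (red), with the group mean as a black line. Cyp7a1, Akr1d1, Amacr and Baat do not overlap between the groups, and Cyp7a1 has the widest spread among control mice (0.097 to 8.92 FPKM).

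These counts depended on how the mice were scaled to each other, and markers of hepatocytes, the cells that make bile acids, also differed between the groups. Of 10 hepatocyte markers 7 rose, against 12.7% of all genes. Their summed FPKM was 41108 to 57374 in PZH mice and 23293 to 36791 in control mice. In bulk liver, fewer cells of a type and less RNA per cell cannot be told apart. When each mouse was divided by the geometric mean of the 10 hepatocyte markers, a scaling chosen after seeing the data, Cyp7a1, Akr1d1 and Amacr rose (3 of 9, against 3.52% of all genes) and Cyp27a1 and Slc27a5 fell (2 of 9, against 67.6%). With each mouse divided by its median-ratio scale factor, which moved the median log2 difference of all genes by 0.11, the same 7 enzymes rose and none fell. Under that scale factor 19.8% of all genes rose and 19.3% fell.

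**Figure D2:**
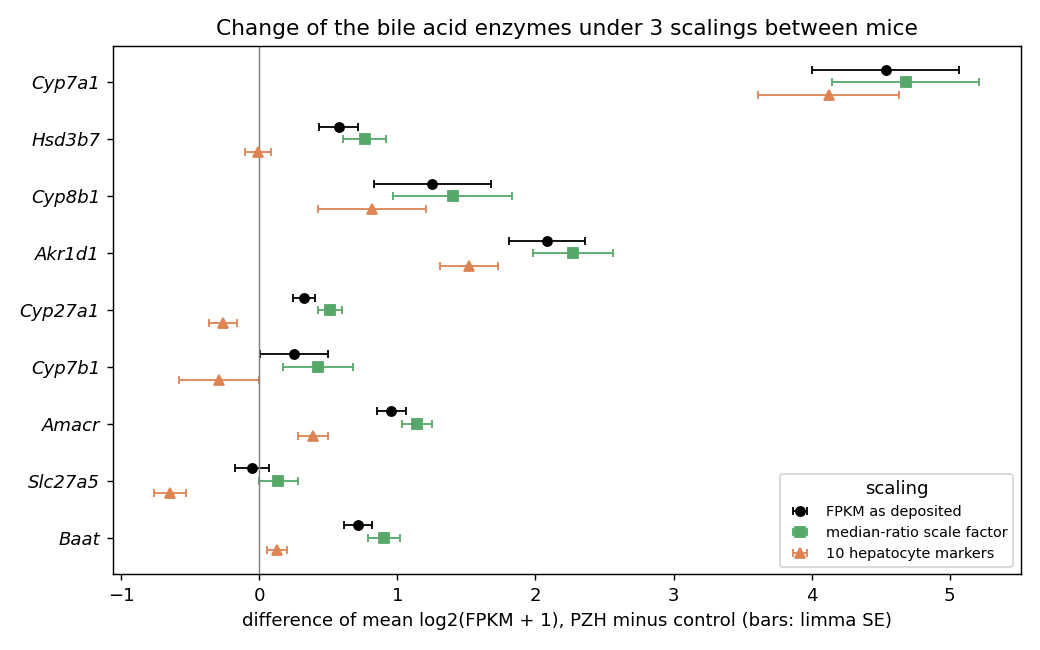
Log2 difference (PZH minus control, with its limma SE) of each enzyme from FPKM as deposited (circles), with a median-ratio scale factor (squares) and relative to 10 hepatocyte markers (triangles). Cyp7a1, Akr1d1 and Amacr rose under all 3 scalings, and Cyp27a1 rose with the first 2 and fell with the third.

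Cyp7a1 (ENSMUSG00000028240, chr4:6265612-6275631, minus strand, GRCm38, 1 listed transcript of 6 exons), the rate-limiting enzyme of the classical pathway, had the largest log2 difference of the 9 enzymes. Its FPKM ran from 35.5 to 155 (median 45.7) in PZH mice and from 0.097 to 8.92 (median 1.10) in control mice. The groups did not overlap, and the lowest PZH mouse was above the highest control mouse. The mean was 71.8 ± 49.0 FPKM with PZH and 2.63 ± 3.40 without it (SD, n = 6 each), a 27.3-fold ratio of the means. This gave a log2 difference of 4.54 (SE 0.53, adjusted P = 4.63e-05, exact permutation p = 0.0022). It was at least 4.12 in every alternative setting tried, and Cyp7a1 rose in each.

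On a fold scale the control mice spread more widely in Cyp7a1 than the PZH mice, a description with no test. The highest control mouse was 91.9-fold above the lowest, and the highest PZH mouse was 4.36-fold above the lowest. Control 1 (0.097 FPKM), control 4 (0.469) and control 5 (0.854) were below 1 FPKM, and control 2 (8.92) and control 6 (4.11) were the highest. Among PZH mice, PZH 1 (155 FPKM) and PZH 5 (109) stood above the other 4, which lay between 35.5 and 48.6.

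Cyp8b1 (ENSMUSG00000050445, chr9:121914356-121916305, minus strand, 1 exon), the hydroxylase needed for cholic acid, rose by less and less firmly. PZH mice had 2.26 to 16.7 FPKM (median 6.68) and control mice 0.609 to 5.37 (median 2.43). The groups overlapped, with 4 of 6 PZH mice above every control mouse and PZH 6 (2.26 FPKM) below 3 control mice. On the log2 scale it was higher by 1.25 (SE 0.43, adjusted P = 0.0293, exact permutation p = 0.0281). This call was lost in 6 of the 12 fits that left out 1 mouse (PZH 1, 4 or 5, or control 1, 4 or 5), with adjusted P between 0.0539 and 0.0644, and it was also lost relative to the hepatocyte markers (log2 difference 0.82, adjusted P = 0.0768). In the table of single transcripts, where its 1 transcript has the same values, the adjusted P was 0.0694.

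The change of Cyp7a1 exceeded that of Cyp8b1 within the same mice. The Cyp7a1 to Cyp8b1 ratio of FPKM was 5.41 to 15.7 in PZH mice and 0.159 to 1.66 in control mice, with no overlap. The log2 difference of Cyp7a1 was larger than that of Cyp8b1 by 3.28 (exact permutation p = 0.0022, also after adjustment over 3 such comparisons), and by 3.17 to 3.48 when any 1 mouse was left out. After the group means were removed, Cyp8b1 had a Pearson correlation with Cyp7a1 of 0.87 over the 12 mice, the third highest of 10947 genes with a mean FPKM of at least 1. The 12 points are whole livers that also differ in the level of hepatocyte markers, and this correlation is given as a description with no test. In the control group both genes were highest in control 2, then control 6 and control 3, and both were lowest in control 1.

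**Figure D3:**
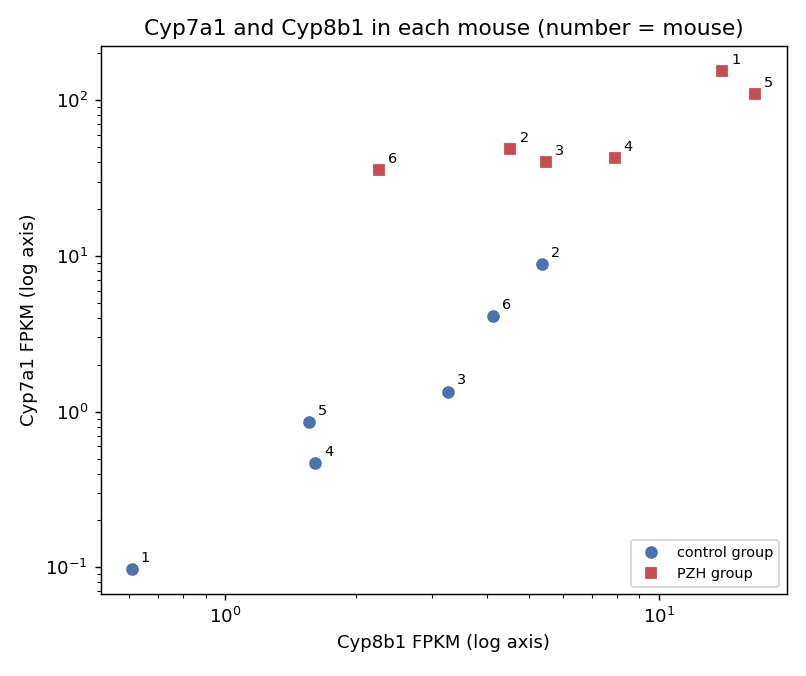
FPKM of Cyp7a1 against Cyp8b1 (both log axes) in each mouse, numbered as in the labels, with control mice as blue circles and PZH mice as red squares. PZH mice lie above control mice in Cyp7a1 at similar Cyp8b1, as PZH 2 (48.6 and 4.54 FPKM) and control 6 (4.11 and 4.14) show.

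The 4 genes most like Cyp7a1 beside Cyp8b1 by that measure were Apoo (0.94), a mitochondrial protein, Sult2a8 (0.88), a sulfotransferase of bile acids, Nudt8 (0.87) and Fmo1 (0.86), a flavin-containing oxygenase. Of these, Sult2a8 and Fmo1 rose in the PZH group (log2 differences 0.73 and 1.21), and Apoo (0.27, adjusted P = 0.134) and Nudt8 (0.06, adjusted P = 0.558) did not pass. Among the enzymes, the correlation with Cyp7a1 was 0.82 for Baat, 0.71 for Hsd3b7, 0.64 for Cyp27a1 and 0.63 for Akr1d1. It was 0.25 for Amacr, 0.08 for Cyp7b1 and -0.06 for Slc27a5.

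Hsd3b7 (ENSMUSG00000042289, chr7:127800604-127803802, plus strand), which oxidizes the ring after Cyp7a1 or Cyp7b1, rose. PZH mice had 58.2 to 96.0 FPKM (median 83.5) and control mice 43.2 to 68.1 (median 51.1). The groups overlapped. Hsd3b7 differed by 0.57 on the log2 scale (SE 0.14, adjusted P = 0.00555, exact permutation p = 0.0108), and relative to the hepatocyte markers it was -0.01 (adjusted P = 0.923). Exons of Hsd3b7 share 1717 bases with Gm49388, an annotated gene on the same strand that was not analysed here, and 1729 bases with 9430064I24Rik on the other strand, so its value is uncertain.

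Hsd3b7 was the enzyme with the most transcripts, 6. The difference in mean FPKM was larger in Hsd3b7-203 than in the more abundant Hsd3b7-201, but this rested on control 5 and control 6. The transcript Hsd3b7-201, 59.8% of the FPKM of the gene, had 43.8 ± 9.33 FPKM (SD, n = 6) in PZH mice and 35.9 ± 15.4 in control mice, a log2 difference of 0.36 (adjusted P = 0.384 over all transcripts). The transcript Hsd3b7-203 had 27.7 ± 7.77 FPKM in PZH mice, and its control values were listed at 0 in control 5, 1.46 in control 6 and between 13.7 and 20.6 in the other 4. Its log2 difference was 1.82 (SE 0.72, adjusted P = 0.102, exact permutation p = 0.00866), so it did not pass the adjusted threshold. In the mice where Hsd3b7-203 was lowest, Hsd3b7-201 had its highest control values, 49.5 FPKM in control 5 and 58.5 in control 6. Hsd3b7-205 (log2 difference 0.57, adjusted P = 0.0568) and Hsd3b7-202 (0.20, adjusted P = 0.604) were lower in level and did not pass. As a share of Hsd3b7-201 and Hsd3b7-203 together, Hsd3b7-203 made up 29.3% to 45.8% in PZH mice. In control mice it made up 32.3% to 51.6% in 4 mice, 2.43% in control 6 and 0% in control 5. The FPKM of the pair together was 52.3 to 86.8 in PZH mice and 37.5 to 59.9 in control mice. The depth behind the value listed at 0 is unknown, and how the authors' software divided reads between these transcripts was not tested. Hsd3b7-203 lacks the first 93 bases of exon 6 of Hsd3b7-201, which encode 31 residues in frame. The stretch is printed because it is what separates the 2 transcripts whose shares differ between mice (chr7:127802236-127802328, plus strand, GRCm38, from the GENCODE M21 transcript).
Hsd3b7 exon 6, bases missing from Hsd3b7-203: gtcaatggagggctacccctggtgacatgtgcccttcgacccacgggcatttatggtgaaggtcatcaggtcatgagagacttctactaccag

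**Figure D4:**
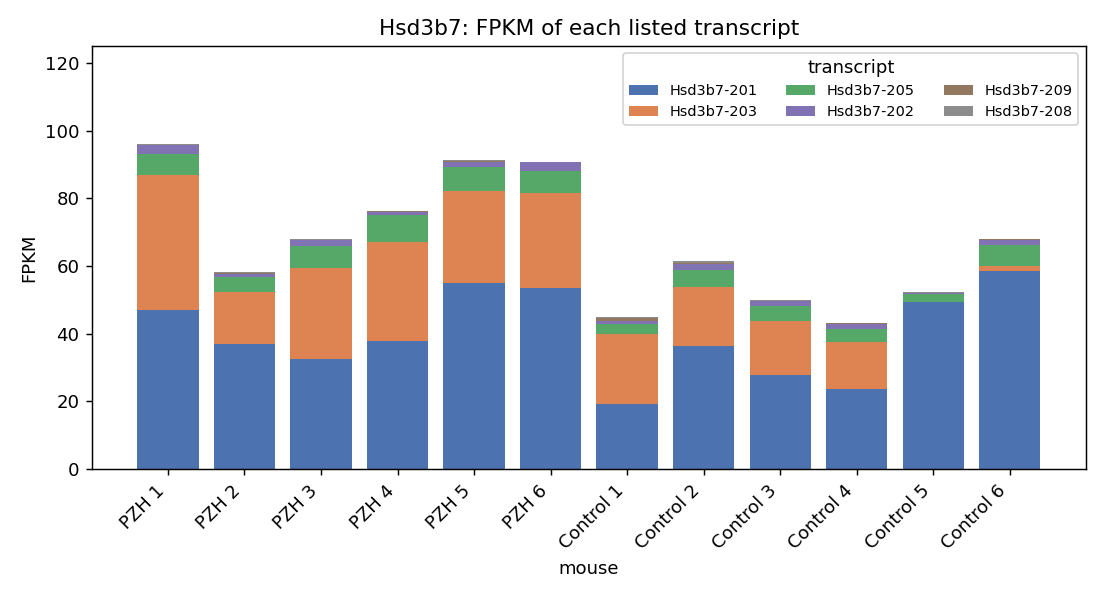
Stacked FPKM of the 6 listed Hsd3b7 transcripts in each mouse. Hsd3b7-203 (orange) is present in all 6 PZH mice, is listed at 0 in control 5 and stands at 1.46 FPKM in control 6.

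Akr1d1 (ENSMUSG00000038641, chr6:37530173-37568815, plus strand, 9 exons), the reductase that gives bile acids their bent ring, had the next largest log2 difference after Cyp7a1. The 6 PZH mice lay between 45.6 and 87.3 FPKM (median 67.5) and the 6 control mice between 6.68 and 24.3 (median 17.5). Every PZH mouse was above every control mouse, and control 4 and control 1 were the lowest. The mean was 68.8 ± 16.8 FPKM (SD, n = 6) against 16.3 ± 6.85, a 4.21-fold ratio. The log2 difference of Akr1d1 was 2.09 (SE 0.28, adjusted P = 9.41e-05, exact permutation p = 0.0022). It stayed between 1.52 and 2.27 over all settings tried.

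Promoter sequence was at hand in RefSeq (GRCm38.p6) for 4 of the 9 enzymes, as 250 bases before the annotated start. These were searched on both strands for the sites of factor families whose genes were measured. The searched letters were the D-box TTATGNAA, bound by Dbp, Tef, Hlf and Nfil3, the E-box CACGTG of the clock, the RORE of Nr1d1, the Hnf4a site CAAAGTCCA and the site CAAGGNCA of Nr5a2, also called LRH-1. The D-box was found in 3.07% of all 32851 promoters in the table, the E-box in 6.02%, the RORE in 0.177%, the Hnf4a site in 0.384% and the Nr5a2 site in 5.53%. The 3 enzyme promoters with a match are printed with the match in capitals, 5′ to 3′ on the strand of the gene. In Akr1d1 (chr6:37529923-37530172, plus strand) a D-box lay 8 to 1 bases before the start. In Cyp27a1 (chr1:74713285-74713534, plus strand) the searched D-box letters matched at TTATGAAA, 60 to 53 bases before it. In Cyp8b1 (chr9:121916306-121916555, minus strand) an Hnf4a site, 67 to 59 bases before the start, overlapped an Nr5a2 site, 60 to 53 bases before it. The Hsd3b7 promoter held none of these letters. Positions are counted from the RefSeq start, which differs from the gene start given here in Cyp27a1 and Hsd3b7. A match is a description of the letters and not of binding.
Akr1d1: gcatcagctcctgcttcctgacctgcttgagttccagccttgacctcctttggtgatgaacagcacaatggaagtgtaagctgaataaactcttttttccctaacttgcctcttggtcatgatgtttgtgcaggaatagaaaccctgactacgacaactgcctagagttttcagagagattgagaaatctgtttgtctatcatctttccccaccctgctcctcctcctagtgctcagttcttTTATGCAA
Cyp27a1: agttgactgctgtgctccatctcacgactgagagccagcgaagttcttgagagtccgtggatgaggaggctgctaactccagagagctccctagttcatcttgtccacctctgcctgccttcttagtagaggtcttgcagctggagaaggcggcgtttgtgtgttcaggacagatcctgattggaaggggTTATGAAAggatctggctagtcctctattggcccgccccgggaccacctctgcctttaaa
Cyp8b1: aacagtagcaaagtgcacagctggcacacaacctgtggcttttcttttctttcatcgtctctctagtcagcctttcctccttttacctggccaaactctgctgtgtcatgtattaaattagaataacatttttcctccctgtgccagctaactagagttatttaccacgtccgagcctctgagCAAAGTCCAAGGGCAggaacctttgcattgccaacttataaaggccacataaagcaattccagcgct

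Cyp27a1 (ENSMUSG00000026170, chr1:74713574-74737892, plus strand, 9 exons), the mitochondrial enzyme that opens the alternative pathway and also trims the side chain in the classical one, rose by a small amount. Its FPKM ran from 98.7 to 115 (median 106) in PZH mice and from 71.8 to 105 (median 85.1) in control mice. The PZH mice lay close together, and 5 of 6 control mice were below all of them, with control 6 (105 FPKM) inside their range. Cyp27a1 was higher by 0.32 on the log2 scale (SE 0.08, adjusted P = 0.00661, exact permutation p = 0.00866). Relative to the hepatocyte markers it was -0.26 (adjusted P = 0.029), so the direction depended on the scaling. The log2 difference of Cyp7a1 was larger by 4.21 (exact permutation p = 0.0022).

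Cyp7b1 (ENSMUSG00000039519, chr3:18071950-18243338, minus strand, 6 exons), the hydroxylase of the alternative pathway, did not pass the test. PZH mice had 7.29 to 19.0 FPKM (median 11.4) and control mice 6.97 to 17.3 (median 8.42). The groups overlapped over most of their range. The log2 difference was 0.25 (SE 0.25, 95% interval -0.29 to 0.79, adjusted P = 0.442, exact permutation p = 0.374). Cyp7b1 was highest in control 4 and control 1 among control mice, where Cyp7a1 was among its lowest. The Cyp7a1 to Cyp7b1 ratio of FPKM was 3.91 to 10.1 in PZH mice and 0.0073 to 0.924 in control mice, so Cyp7a1 was above Cyp7b1 in all 6 PZH mice and below it in all 6 control mice. The log2 difference of Cyp7a1 exceeded that of Cyp7b1 by 4.29 (exact permutation p = 0.0022).

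Amacr (ENSMUSG00000022244, chr15:10981756-10996626, plus strand, 5 exons), the racemase that prepares the side chain for shortening, rose. The range was 27.0 to 37.8 FPKM (median 31.0) in PZH mice and 11.9 to 18.2 (median 15.9) in control mice. The groups did not overlap. Amacr was higher by 0.96 on the log2 scale (SE 0.11, adjusted P = 3.48e-05, exact permutation p = 0.0022), just under the log2 difference of 1 that the study asked for. Relative to the hepatocyte markers it was 0.39 (adjusted P = 0.00653). The order of the PZH mice differed from that of Cyp7a1, since PZH 1, the highest in Cyp7a1, was the next to lowest in Amacr.

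Baat (ENSMUSG00000039653, chr4:49489422-49506557, minus strand), which joins bile acids to amino acids, rose in both of its transcripts. Its FPKM ran from 132 to 187 (median 149) in PZH mice and from 75.7 to 107 (median 91.1) in control mice. Every PZH mouse was above every control mouse. Baat was higher by 0.72 on the log2 scale (SE 0.10, adjusted P = 0.000142, exact permutation p = 0.0022), and relative to the hepatocyte markers it was 0.13 (adjusted P = 0.137). Baat-202, 75.9% of the FPKM of the gene, had a log2 difference of 0.69 (adjusted P = 0.000957), and Baat-201 one of 0.77 (adjusted P = 0.000262). Over the 17 listed transcripts of the 9 enzymes, 6 rose at the adjusted threshold (those of Cyp7a1, Cyp27a1, Akr1d1 and Amacr and both of Baat) and none fell. Of all 29883 transcripts 5.73% rose and 14% fell. At an unadjusted P below 0.05 in limma 1 of the 17 was lower, Slc27a5-202 (log2 difference -0.23, adjusted P = 0.057), at a mean of 0.366 FPKM against 0.605.

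Slc27a5 (ENSMUSG00000030382, chr7:12988346-12998192, minus strand, 3 transcripts), the ligase that activates bile acids for conjugation, did not pass the test and was the most abundant of the 9 enzymes in both groups. PZH mice had 159 to 257 FPKM (median 203) and control mice 175 to 265 (median 217). The groups overlapped almost fully. The log2 difference was -0.05 (SE 0.13, 95% interval -0.32 to 0.22, adjusted P = 0.759, exact permutation p = 0.697). It was 0.14 (adjusted P = 0.475) with the median-ratio scale factor and -0.64 (adjusted P = 0.00032) relative to the hepatocyte markers, where Slc27a5 fell. The transcript Slc27a5-201 held 99.7% of the FPKM.

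The order of the levels per length changed mainly through Cyp7a1. In the control group it ran from Slc27a5 (216 FPKM) through Baat, Cyp27a1, Hsd3b7, Akr1d1, Amacr, Cyp7b1 and Cyp8b1 to Cyp7a1 (2.63 FPKM). In the PZH group the mean of Cyp7a1 (71.8 FPKM) stood between those of Hsd3b7 and Akr1d1, and Cyp8b1 (8.47 FPKM) was the lowest. In the control group the ranges of the mice overlapped between Baat and Cyp27a1, Akr1d1 and Amacr, Amacr and Cyp7b1, and Cyp8b1 and Cyp7a1. In the PZH group they overlapped between Slc27a5 and Baat, Hsd3b7 and Cyp7a1, Cyp7a1 and Akr1d1, and Cyp7b1 and Cyp8b1. Within each of the 6 PZH mice Slc27a5 was above Baat and Cyp7b1 above Cyp8b1. Hsd3b7 was above Cyp7a1 in 4 of the 6 PZH mice, and Cyp7a1 was above Akr1d1 in only 3. The differences between neighbours were not tested.

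Single mice were high or low in several enzymes at once. PZH 1 was the highest PZH mouse for 5 of the 9 enzymes and PZH 2 the lowest for 6. Control 6 was among the highest 2 control mice for 7 enzymes and control 2 for 6, and control 1 was the lowest for 5. PZH 1 also had the highest level of the 10 hepatocyte markers (1.51 relative to the geometric mean of all mice) and PZH 2 the lowest of the PZH group (1.01). Control 4 and control 1 had the lowest of all (0.697 and 0.705). The summed FPKM of all protein-coding transcripts was largest in PZH 1 (370426) and, within the PZH group, smallest in PZH 2 (326060). The part of the hepatocyte markers and of the summed FPKM in this order was not tested.

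Of 18 other genes of bile acid synthesis 11 rose and 2 fell, with a median log2 difference of 0.38. Over all genes 12.7% rose and 32.1% fell. The largest rises were Akr1c14 (1.65) and Akr1c6 (1.01), steroid reductases, Cyp2c70 (1.17), which makes muricholic acids in mice, and Abcd3 (1.04), which carries bile acid precursors into peroxisomes. Akr1c14 had a mean of 190 ± 37.4 FPKM (SD, n = 6) with PZH and 62.7 ± 23.1 without it. Cyp2c70 had 365 ± 58.6 FPKM against 165 ± 42.8. These 4 genes did not overlap between the groups, which adds no further support because they were picked for the size of their difference. Of all 18 genes 7 were higher without overlap, against 6.46% of all genes, and 1 was lower without overlap. The share of all genes that were lower without overlap was not taken, so that 1 has no comparison. The 2 that fell were Ch25h, a cholesterol hydroxylase (log2 difference -1.39, with 0.068 ± 0.052 FPKM against 1.96 ± 1.07), and Acnat2, a relative of Baat (-0.48, with overlap). Ch25h did not overlap between the groups. Acnat2 did not pass with the median-ratio scale factor (-0.29, adjusted P = 0.161).

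Of 24 regulators of bile acid synthesis 13 rose, 4 fell and 7 did not pass, with a median log2 difference of 0.21. Over all genes 12.7% rose and 32.1% fell. The largest rises were in factors of the daily clock, Dbp (2.73), Tef (1.49) and Nr1d1 (1.11), and in Nr1h4 (0.98), the bile acid receptor also called FXR. Dbp had 18.5 ± 4.97 FPKM (SD, n = 6) with PZH and 2.11 ± 1.29 without it, and Nr1h4 had 53.0 ± 6.72 against 26.7 ± 5.07. The genes that fell were Jun (-1.57), a stress-responsive factor, Nfil3 (-1.09), which binds the D-box as a repressor, Fgfr4 (-0.69), the receptor for the gut growth factor, and Hnf4a (-0.30), an activator of Cyp7a1 and Cyp8b1. Nfil3 had 5.34 ± 0.922 FPKM against 12.9 ± 4.13. None of these 8 regulators overlapped between the groups, which adds no further support because they were picked for the size of their difference. Of all 24 regulators 9 were higher without overlap, against 6.46% of all genes, and 4 were lower without overlap. For these 4 too, the share over all genes was not taken, so the count has no comparison. Hnf4a did not pass with the median-ratio scale factor (-0.11, adjusted P = 0.25). Nr0b2, the repressor called SHP that Nr1h4 induces, was looked at after its values were seen and did not pass (10.7 ± 3.71 against 13.8 ± 4.13 FPKM, log2 difference -0.35, adjusted P = 0.194). The hour at which each mouse was killed was not given in the sources used here, so its part in the clock genes and in Cyp7a1 was not tested. Relative to the hepatocyte markers 4 regulators rose and 11 fell, and 4 of the other synthesis genes rose and 7 fell. Under that scaling 3.52% of all genes rose and 67.6% fell.

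**Figure D5:**
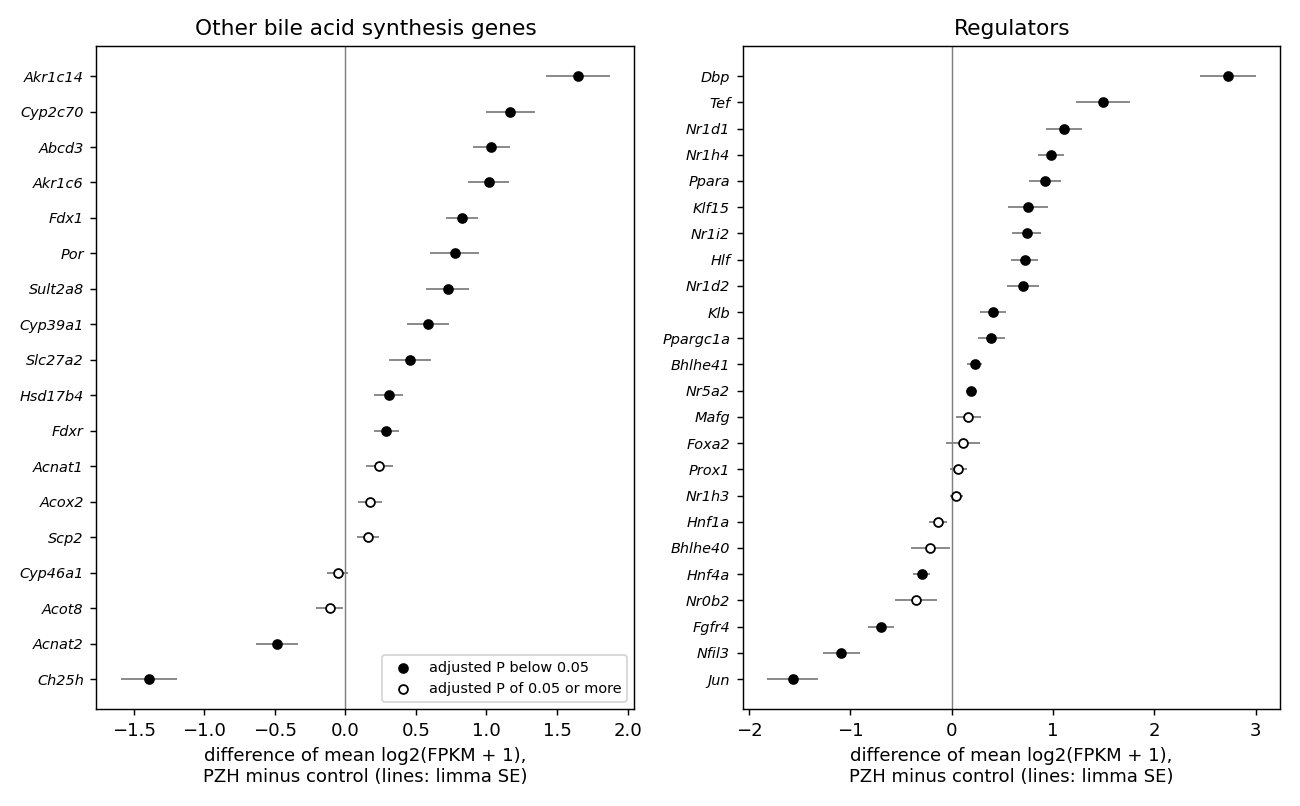
Log2 difference (PZH minus control, with its limma SE) of 18 other bile acid synthesis genes (left) and 24 regulators (right), filled where the adjusted P was below 0.05. Akr1c14 (1.65) and Dbp (2.73) are the highest, and Ch25h (-1.39) and Jun (-1.57) the lowest.

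The marker lists moved as follows beside the enzymes, where 12.7% of all genes rose and 32.1% fell. Of the 10 hepatocyte markers, Alb had 38437 ± 5471 FPKM (SD, n = 6) against 24059 ± 4039, the log2 differences of Alb and Ttr were both 0.68, and Apoa1 (0.28, adjusted P = 0.0833) did not pass. These levels are those of liver tissue, as labelled. Cyp7a1 is made mainly by pericentral hepatocytes, which CCl4 injures first. Of 9 pericentral markers measured (Slc1a2 was not analysed here) 6 rose and none fell (0 by the unadjusted and the exact test too), with summed FPKM of 1023 to 2056 in PZH mice and 299 to 516 in control mice. The 3 with the highest FPKM were Cyp2e1, which activates CCl4 (log2 difference 2.24), Gulo (1.32) and Cyp1a2 (405 ± 198 against 95.9 ± 25.7 FPKM), each without overlap. The 3 that did not pass, named after their values were seen, were Glul (0.32, adjusted P = 0.114), Rhbg (0.26, adjusted P = 0.167) and Oat (-0.49, adjusted P = 0.3). The share of the pericentral cells in the rise of Cyp7a1 was not tested. Of 9 periportal markers 3 rose, 5 did not pass and 1 fell, with sums of 1967 to 2846 and 1723 to 2047 FPKM. The marker with the highest FPKM, Ass1, rose (735 ± 176 against 362 ± 64.0 FPKM). The 1 that fell, named after its value was seen, was Cdh1 (log2 difference -0.93).

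Markers of other cell types gave the following counts, to be read against the 12.7% of all genes that rose and the 32.1% that fell. Of 10 macrophage markers 3 rose and 2 fell (sums of 423 to 640 FPKM in PZH mice and 424 to 539 in control mice), with Lyz2 at 0.29 (adjusted P = 0.232). Of 10 stellate cell and myofibroblast markers 2 rose and 3 fell (sums of 310 to 398 and 246 to 370), with Dcn at 0.12 (adjusted P = 0.4). Of 9 endothelial markers none rose (0 by the unadjusted and the exact test too) and 2 fell (sums of 98.7 to 131 and 117 to 131), with Clec4g at -0.02 (adjusted P = 0.868). Of 6 cholangiocyte markers none rose (0 by both of those tests) and 1 fell, Sox9, named after its value was seen (-1.64, with 2.73 ± 0.430 against 10.7 ± 1.78 FPKM, sums of 71.6 to 140 and 102 to 166), and Spp1 was at -0.39 (adjusted P = 0.116). Of 12 lymphocyte and neutrophil markers none passed in either direction by limma, adjusted or not, or by the exact test (0 each), with sums of 14.9 to 132 and 19.3 to 65.1 and S100a8 at -0.31 (adjusted P = 0.698). No marker measured was at 0 in every mouse. The part of these cell types in the enzyme values was not tested.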

How the data were processed

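Liver RNA of 6 PZH and 6 control mice was made by the authors into rRNA-depleted, strand-specific libraries and sequenced. Reads were trimmed with Trimmomatic, mapped to GRCm38 with HISAT2 2.1.0 and assembled with StringTie 1.3.5 and Ensembl release 95. The authors deposited FPKM per transcript and mouse, already divided by length and library size. The table of lncRNA transcripts was not used here. Of 29883 protein-coding transcripts, 29876 were assigned to 14188 genes by GENCODE M21 and summed. The FPKM sum of a listed transcript was at least 1. At most 5.37% to 6.59% of low values per mouse fell on whole reads (tolerance 0.02, 4% by spacing alone), so no count test was run.

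Groups were compared on log2(FPKM + 1) with limma 3.58.1 in R 4.3.3, without filter, block or covariate. The other steps ran in scipy 1.17.1, numpy 2.4.6 and pandas 2.3.3 under Python 3.11.15, with figures from matplotlib 3.10.9. The labels do not say more of the replicates than the mouse number, and same-numbered mice were not treated as pairs. The enzymes, gene lists and tests were chosen with earlier results of these data known. Named were the 9 enzymes and their transcripts with a mean of at least 1 FPKM in either group or past the test, up to 4 genes per direction with the largest difference in the other bile acid lists, up to 3 markers per list by level, and the 5 genes most like Cyp7a1. Other settings tried were a filter at a mean FPKM of 1, a pseudocount of 0.1, a median-ratio scale factor, an equal FPKM sum, no or trended variance moderation, the mouse number as a block, each mouse left out, the most abundant transcript per gene and, chosen after seeing the data, scaling to 10 hepatocyte markers. On simulated data with 200 of 14188 genes shifted by 1.5 on the log2 scale, the gene fit recovered 97.5% and called 7 unchanged genes. The fit of 29883 transcripts recovered 85% of 200 and called 11 unchanged ones. In both, the shifted genes or transcripts were drawn only from those above a minimum mean level in control mice. Cyp7a1 and Cyp8b1 lay below that level, so recovery was not tested at levels as low as theirs. Recovery was not tested at smaller shifts, such as the 0.32 of Cyp27a1 or the 0.57 of Hsd3b7. Recovery and calls of unchanged genes were not tested with as many changed genes as were called here (1798 rose and 4560 fell).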

Additional observations from a re-analysis of the deposited data

Results flagged for a closer look

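Amacr in control 1 stood apart from the other control mice. Its value of 11.9 FPKM was the lowest of the 6, and the gap to the next mouse was 0.635 of the range of the group on the log2 scale, above Dixon's 95% critical value for 6 samples. This was 1 of 18 groups of mice looked at (9 enzymes in 2 groups), and chance gives such a gap in about 1 of 20 groups. Control 1 was also the lowest control mouse for Cyp7a1 and Cyp8b1, and the log2 difference of Amacr without it was 0.88 (adjusted P = 5.82e-05 in limma, 0.96 with all mice).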

How the results depend on the processing

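Cyp7a1, Akr1d1 and Amacr rose in limma under every alternative, and the excess of the Cyp7a1 change over those of Cyp8b1, Cyp27a1 and Cyp7b1 passed the exact test in each. The weakest call was Cyp8b1, with adjusted P of 0.00937 to 0.0876 over its alternatives; it was also lost without variance moderation (0.0588). Hsd3b7 did not pass on its most abundant transcript alone (0.36, adjusted P = 0.301). Mice of the same number did not deviate together (correlations -0.078 to 0.093), so the number was not taken as a pairing. With it as a replicate block, 6 of 9 enzymes rose, Cyp8b1 did not (adjusted P = 0.0876), and the 3 comparisons of Cyp7a1 had an exact p of 0.0313, the smallest that 6 pairs allow. No enzyme transcript fell with all mice, and 1, Slc27a5-202, fell with a pseudocount of 0.1 and without variance moderation, and 0 to 1 fell when 1 mouse was left out (1 without PZH 2 or control 1).

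Counts of genes moved with the scaling between mice and, by the study's threshold, with the pseudocount, and the cause was not tested. Relative to the hepatocyte markers (chosen after seeing the data) 3 enzymes rose and 2 fell, 4 other synthesis genes rose and 7 fell, 4 regulators rose and 11 fell, and 9 cell type markers rose and 36 fell (21 and 9 as deposited). Over all genes 1798 rose and 4560 fell as deposited, 2807 and 2739 with the median-ratio scale factor, and 499 and 9584 relative to the hepatocyte markers. By the study's threshold 215 were higher and 355 lower as deposited, 506 and 811 with a pseudocount of 0.1, 349 and 210 with the median-ratio scale factor, and 66 and 1953 relative to the hepatocyte markers. With the median-ratio scale factor 37 markers rose, 1 other synthesis gene fell (2 as deposited) and 2490 transcripts fell (4186 as deposited).

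Some log2 differences changed sign, of which only those of the enzymes and of other genes named by the stated rule are given. Relative to the hepatocyte markers these were Cyp27a1 (-0.26), Cyp7b1 (-0.29), Hsd3b7 (-0.011), Apoa1 (-0.31), Lyz2 (-0.30), Dcn (-0.47), Apoo (-0.28) and Nudt8 (-0.43). With the median-ratio scale factor Slc27a5 (0.14), its transcript Slc27a5-201 (ENSMUST00000032539, 0.13) and Clec4g (0.16) turned. On the most abundant transcript Dcn (-0.019) and Spp1 (0.13) turned. Leaving out 1 mouse moved Slc27a5 to between -0.12 and 0.020, Slc27a5-201 to between -0.12 and 0.021 and Clec4g to between -0.077 and 0.048, each a range over the 12 fits.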
